A study of Mus musculus with 11 samples.

Results

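Regulatory T cells of the mouse lung were taken from droplet-based 3′ single-cell RNA sequencing of 11 libraries of dissociated whole lung. They were chosen by their UMI counts (unique molecular identifiers, 1 per captured RNA molecule). A barcode needed 1000 to 30000 UMIs, at most 14% of them mitochondrial, and then 1 or more UMIs of Foxp3, 2 or more over Cd3d, Cd3e and Cd3g, and 0 of Cd8a, Cd8b1 and Cd79a. This rule found 662 cells among 69267 barcodes that passed the filters, of 81983 barcodes in all. The libraries fall into 4 genotypes at the p21 gene (Cdkn1a): 1 wild-type library (+/+, WT), 3 of p21 heterozygotes (+/-, p21Het), 5 with an allele of p21 carrying mTert beside a normal one (+/mTert, p21mTert), and 2 with the mTertCD allele beside a normal one (+/mTertCD, p21mTertCD; the labels do not spell out CD). All mice were 18 months old per the age labels, except those of p21Het_1 at 19 months and p21mTert_1 at 20 months, while the sample titles give 18 months for these too. WT, p21Het_1 and p21mTert_1 form a first deposit and the other 8 libraries a later one, so age and deposit cannot be told apart for these 2 mice. The labels do not say that replicates are separate mice, so p-values measure the spread between libraries.

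Regulatory T cells are CD4 T cells that restrain other immune cells. The transcription factor Foxp3 fixes their identity, and they use surface proteins such as CTLA-4, which removes costimulatory ligands, and CD25 (Il2ra), the high-affinity chain of the interleukin-2 receptor. Some recirculate through lymphoid organs, and others settle in tissues such as the lung, where they are known to carry the interleukin-33 receptor ST2 (Il1rl1) and to make amphiregulin (Areg), a growth factor for epithelium.

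Several libraries stood apart. The 662 cells held 4100050 UMIs, with a median of 4029 to 5587 per cell and library. The number of cells ran from 20 in p21mTert_5 to 139 in p21Het_2. The p21mTertCD_1 library held 157 B cells (Cd79a 2 or more UMIs and no CD3 UMI) against 920 to 2308 elsewhere, and 2429 T cells against 703 to 1466. Mitochondrial UMIs made up a median of 6.30% to 6.58% per filtered barcode in libraries deposited first, against 2.82% to 4.28% in those deposited later. Libraries shared 4 to 20 barcode sequences pairwise, no cell barcode was a regulatory T cell in 2 libraries, and 16 of the 662 barcodes passed the filters in another library.

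Of the fixed markers besides Foxp3, Ctla4 was higher than in other T cells in every library, while Il2ra was not. Ctla4 (ENSMUSG00000026011, chromosome 1, 60887000 to 60915832, GRCm38) was detected in 92.7% of the 662 cells and in 29.6% of the 7072 T cells of the same gate without a Foxp3 UMI, which serve as the comparison below. Il2ra (ENSMUSG00000026770, chromosome 2, 11642807 to 11693193) was detected in 46.8% and 28.9%, and Ikzf2 (Helios, a transcription factor of thymus-derived regulatory T cells; ENSMUSG00000025997, chromosome 1, 69531214 to 69687245) in 88.7% and 35.9%. Foxp3 itself (ENSMUSG00000039521, chromosome X, 7573644 to 7595245), which the rule used, ranged from 276.2 to 480.1 CPM (counts per 1000000 UMIs), with a median of 402.3. Of the cells, 246 had 1 Foxp3 UMI, 151 had 2 and 265 had 3 or more, up to 15. The cells held 1705 of the 2005 Foxp3 UMIs of all filtered barcodes (85.0%). A Cd4 UMI was seen in 355 of the 662 (53.6%).

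Cells just inside and outside the thresholds were as follows. Cells with 1 Foxp3 UMI had 995.0 CPM of Ctla4 and those with 2 or more had 1103, against 135.1 in the Foxp3-negative T cells. The 17 cells with a CD3 sum of exactly 2 had 492.0 CPM of Ctla4. A CD3 sum under 2 was found in 38 Foxp3-positive barcodes, and the next 2 sets are those without Cd8a, Cd8b1 or Cd79a UMIs. The 5 with a CD3 sum of 1 had 587.9 CPM of Ctla4. The 23 without any CD3 UMI had 0 Ctla4 UMIs and a median of 14256 UMIs. A further 50 Foxp3-positive T cells were left out for a Cd8a or Cd8b1 UMI and had 842.0 CPM of Ctla4. Another 42 Foxp3-positive barcodes with a CD3 sum of 2 or more were left out for a Cd79a UMI. Among other cell types, a Foxp3 UMI was found in 0.0513% of B cells (median 4228 UMIs), in 0.0805% of endothelial cells (median 3767) and in 0.180% of alveolar type 2 cells (median 17111). Among T cells with a Cd8a or Cd8b1 UMI it was found in 0.782% (median 7755). Whether these UMIs came from free RNA was not tested. The 662 cells had a median of 4763.5 UMIs. Thinned to 1000 UMIs per cell, 38.4% of the 662 cells kept a Foxp3 UMI, against 0.219% of these CD8 T cells and 0 of 15593 B cells.

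Most genes of the known identity program were higher in the regulatory T cells than in the other T cells of every library. Levels are CPM of the UMIs summed per library, and log2 ratios are medians over 11 libraries of log2(CPM + 10) in regulatory T cells minus Foxp3-negative T cells of the same library. Since the gate selected on Foxp3, these ratios are a description and have no test. The Foxp3-negative cells may include regulatory T cells whose Foxp3 RNA was not captured, which was not tested. Of 3096 genes that reached 50 CPM on either side, 354 were higher in 11 of 11 libraries (11.4%) and 182 were lower in 11 of 11 (5.88%). Over all 20146 genes with a UMI, which hold the list genes under that level too, 458 (2.27%) were higher and 479 (2.38%) lower in all 11. Of the 19 genes of the identity list, 14 were higher in all 11 libraries and none was lower in all, with a median log2 ratio of 1.22 against 0.10 over the 3096 genes. Of the 15 that reached 50 CPM, 13 were higher in all. When a Cd4 UMI was also required on both sides, a comparison added after seeing the data, 193 genes (6.23%) were higher and 123 (3.97%) lower in every library, and 12 of the 19 identity genes were higher in all. Of those 193 and 123 genes, 153 and 89 were also among the first counts.

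Ctla4 stood between 829.2 CPM in WT_1 and 1462 in p21Het_1, with a median of 1029, and Foxp3-negative cells at 80.5 to 184.9 CPM. The ranges did not overlap, and the median log2 ratio was 2.71. Ikzf2 ranged from 1001 to 1781 CPM with a median of 1244, against 88.3 to 284.8, a log2 ratio also of 2.71. Ikzf4 (Eos), a relative of Helios that works as a corepressor with Foxp3, had 60.2 to 131.2 CPM (median 99.2) against 3.69 to 12.9.

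The identity list holds 3 receptors of the tumor necrosis factor family, which deliver costimulation, and each was higher in all 11 libraries. Tnfrsf4 (OX40) had 612.3 to 1028 CPM (median 798.5) against 49.5 to 327.1, a log2 ratio of 2.68. Tnfrsf18 (GITR) had 321.9 to 460.5 CPM against 87.5 to 219.8, and Tnfrsf9 (4-1BB) had 75.1 to 198.4 against 5.53 to 41.3. None of these 3 pairs of ranges overlapped. Lrrc32 (GARP), which docks latent TGF-β on the cell surface, had 25.5 to 132.2 CPM (median 95.1) against 0.878 to 6.89, a log2 ratio of 2.70. Its lowest library was p21Het_2. Itgb8, part of the integrin that releases active TGF-β, had a mean of 63.1 ± 24.3 CPM (SD, n = 11) against 9.18 ± 7.2.

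Il2ra was less uniform. It ranged from 63.7 CPM in p21mTert_2 to 389.2 in p21Het_1, with a median of 187.6, and overlapped the Foxp3-negative range of 67.9 to 158.2. Its log2 ratio was 0.95 and it was higher in 9 of 11 libraries, all but p21mTert_2 and p21mTert_5. With a Cd4 UMI required on both sides it was 1.57 and higher in 11 of 11. Il2rb, the shared beta chain, was higher in 9 of 11 as well, with a log2 ratio of 0.29. The other identity genes that were higher in all 11 libraries were Izumo1r (folate receptor 4), Nrp1 (neuropilin 1), Nt5e (CD73, which makes adenosine), Tigit, Capg and Icos, with log2 ratios from 0.67 to 1.87. Entpd1 (CD39), the partner of CD73, had a log2 ratio of 0.22 and was higher in 8 of 11, and Socs2, which damps cytokine signals, had -0.15 and was lower in 6 of 11.

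**Figure D1:**
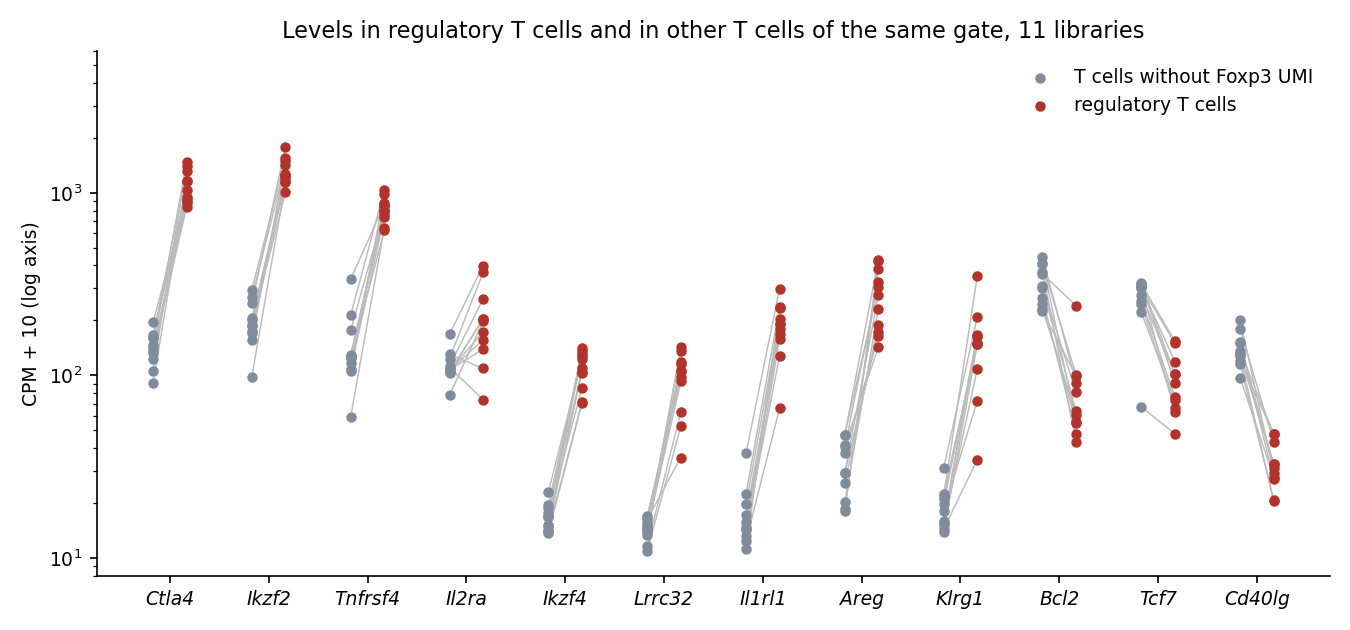
CPM + 10 (log axis) of 12 genes in regulatory T cells (red) and in T cells of the same gate without a Foxp3 UMI (grey), with 1 pair of points joined by a line per library, 11 libraries. Ctla4, Ikzf2, Il1rl1, Areg and Klrg1 lie higher in every pair, Il2ra in 9 of 11, and Bcl2, Tcf7 and Cd40lg lie lower in every pair.

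Among the 354 genes higher in all 11 libraries, the 3 highest log2 ratios belonged to genes of tissue regulatory T cells. Il1rl1 (ENSMUSG00000026069, chromosome 1, 40429570 to 40465415) had 56.0 to 288.5 CPM with a median of 180.1, against 1.15 to 27.4, a log2 ratio of 3.40. Areg (ENSMUSG00000029378, chromosome 5, 91139599 to 91148432) had 132.9 to 420.1 CPM (median 264.6) against 8.04 to 37.4, a ratio of 3.02. Klrg1, an inhibitory receptor of effector cells that binds cadherins, had 24.5 to 338.8 CPM (median 140.4) against 3.87 to 21.1, a ratio of 2.85. In each of these 3 genes WT_1 was the lowest library, and no gene's ranges overlapped. Of the 23 tissue and effector genes, 8 were higher in all 11 libraries: these 3, Itgae (CD103, an integrin that binds epithelial E-cadherin), Gata3, Batf, Ccr8 and Irf4. The share higher in all was 2.27% over all genes with a UMI. Of the 17 that reached 50 CPM, 7 were higher in all, against 11.4% of all such genes. With a Cd4 UMI on both sides 5 of the 23 were higher in all, and over all genes above 50 CPM the share was then 6.23%. Gata3 and Irf4 were then higher in 10 of 11, Batf in 9 and Ccr8 in 8. The log2 ratios of Itgae, Gata3, Batf, Ccr8 and Irf4 were 2.13, 1.03, 0.87, 0.80 and 0.79. Cxcr6, a chemokine receptor of resident effector T cells, was lower in all 11, at 0 to 105.8 CPM against 227.9 to 431.8. The list's median ratio was 0.45.

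Il10, the anti-inflammatory cytokine, had a mean of 27.5 ± 30.5 CPM (SD, n = 11) against 9.91 ± 5.97 and was higher in 7 of 11 libraries, and in 5 of 11 with a Cd4 UMI on both sides. Ebi3, a subunit of interleukin-35, was higher in 10 of 11, with 18.3 ± 11.7 CPM against 3.37 ± 1.17. Tgfb1 had a log2 ratio of 0.14 and was higher in 7 of 11. Fgl2, a secreted suppressive protein, had a ratio of 0.31 (7 of 11), and 1.45 (10 of 11) with a Cd4 UMI on both sides. The most abundant genes of the tissue and effector list did not set the cells apart: S100a4, S100a6, Lgals1 and the transcription factor Maf had log2 ratios of 0.14, -0.10, 0.13 and 0.12 and were higher in 5 to 8 of 11 libraries. Icos, the most abundant identity gene after Ikzf2, Ctla4 and Tnfrsf4, had 554 ± 142 CPM against 340 ± 68.0 (SD, n = 11).

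Several genes of naive and central T cells were lower. Of 13 in the list, 6 were lower in all 11 libraries (Bcl2, Satb1, Tcf7, Igfbp4, Dapl1 and Bach2) and none was higher in all, with a median log2 ratio of -0.86. The share lower in all was 2.38% over all genes with a UMI. Of the 10 that reached 50 CPM, 4 were lower in all, against 5.88% of all such genes. With a Cd4 UMI on both sides 9 of the 13 were lower in all, and over all genes above 50 CPM the share was then 3.97%. The 13 include genes under that level. Bcl2, which protects resting T cells from death, had 33.1 to 230.9 CPM (median 53.5) against 214.3 to 433.0. The only overlap came from WT_1, the highest library. Tcf7, a factor of naive and stem-like T cells, had 37.9 to 144.1 CPM against 57.2 to 310.8, and Satb1, a chromatin organizer, had 17.7 to 202.5 against 174.6 to 457.5. Il7r, the interleukin-7 receptor known to be low on regulatory T cells, had a log2 ratio of -0.91 and was lower in 10 of 11. Klf2, Foxp1 and S1pr1, the other abundant genes of the list, had ratios of -0.19, -0.20 and -0.41 and were lower in 7, 6 and 7 libraries. With a Cd4 UMI on both sides Klf2 and S1pr1 had -0.69 and -0.85, each lower in 11 of 11. Ccr7 had -0.23 and was lower in 6 of 11, and with a Cd4 UMI -1.05, lower in 9 of 11. Id3, a repressor of effector fate, had 0.41, higher in 8 of 11, and with a Cd4 UMI -0.12, lower in 6 of 11.

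Some genes of the helper lineages were also low. Of 12, 5 were lower in every library: Il17a, Cd40lg, Tbx21, Ifng and Il2. The last 3 had means below 50 CPM on both sides, so that 2 of the 5 list genes above that level were lower in all, against 5.88% of all genes above it. Cd40lg, the ligand with which helper cells activate B cells, had 10.5 to 37.9 CPM against 87.1 to 191.2, with no overlap. Il2, the growth factor that regulatory T cells are known to take up and make little of, had 2.99 ± 3.12 CPM against 10.7 ± 3.66. The 4 most abundant genes of this list were not lower as a set: the inhibitory receptor Pdcd1 (PD-1), the chemokine receptor Ccr6 and the repressor Bcl6 had ratios of 0.61, 0.39 and 0.28, each higher in 9 of 11 (0.26, 0.02 and 0.17 with a Cd4 UMI on both sides, each higher in 6 of 11), and the chemokine receptor Cxcr3 had -0.27, lower in 8 of 11. The 10 lowest log2 ratios were taken among genes lower in all 11 libraries. Of these, Ccl5, a chemokine of memory and cytotoxic T cells, was at 39.2 to 634.3 CPM against 1026 to 4023 (ratio -3.19). Klrk1, an activating receptor of killer cells, had a ratio of -3.32. Trdc and Tcrg-C1, constant regions of the gamma delta T cell receptor, had ratios of -4.05 and -3.35, and Ly6c2, Pxdc1, Tmem176a and Cd163l1 had -4.01, -3.03, -2.91 and -2.80. The neutrophil genes S100a8 and S100a9 had ratios of -3.57 and -3.49. The comparison cells include T cells without a Cd4 UMI: with one required on both sides the ratios of Trdc, Tcrg-C1, S100a8, S100a9 and Cd163l1 were -0.44, -0.88, -1.28, -0.72 and -0.28, while Klrk1 and Ccl5 stayed at -2.53 and -2.99.

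Among genes that answer to T cell receptor signals, Rel, Nfkbia and Dusp1 were higher in all 11 libraries, 3 of 16, and none was lower in all. All 3 are among the 13 list genes above 50 CPM, against 11.4% over all such genes. With a Cd4 UMI on both sides Dusp1 was higher in 10 of 11. Of the 16 list genes, 3 were then higher in all, against 6.23% over all genes above 50 CPM. Rel (c-Rel), an NF-κB subunit needed for Foxp3 induction, had a mean of 236 ± 52.3 CPM (SD, n = 11) against 105 ± 26.5. Nfkbia, the inhibitor of NF-κB, had 951 ± 224 against 546 ± 179. Junb, an AP-1 subunit and the most abundant gene of the list, had 2124 ± 322 against 1605 ± 316 and was higher in 10 of 11, and Cd69, an early activation marker, had a ratio of -0.02. The list's median ratio was -0.08. Of 11 interferon response genes, Ifi27l2a and Gbp7 were higher in all 11 libraries and Ifi208, with means below 50 CPM, was lower in all. Over all genes with a UMI, 2.27% were higher and 2.38% lower in all. Of the 5 list genes above 50 CPM 2 were higher in all, against 11.4% over all such genes. With a Cd4 UMI on both sides Gbp7 was higher in 9 of 11 and no list gene was lower in all. Ifi208 was nearly level in p21Het_1, at 30.2 against 30.6 CPM. Ifi27l2a ranged from 695.2 to 2562 CPM (median 1319) against 262.2 to 756.1, and Bst2 and Isg15 had ratios of 0.32 (higher in 8 of 11) and 0.58 (10 of 11). Of 8 genes of the p53 and telomerase list, only Mdm2, the ligase that degrades p53, was higher in all 11, with a log2 ratio of 0.32. It was 1 of 5 list genes above 50 CPM, against 11.4% over all such genes, and with a Cd4 UMI on both sides Mdm2 was higher in 9 of 11. The more abundant Bax, Trp53 and Ccng1 had ratios of 0.11, 0.08 and 0.28, and Cdkn1a had -0.04. With a Cd4 UMI on both sides Ccng1 turned to -0.03 and Cdkn1a to 0.32.

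The remaining genes among the 20 highest ratios of genes higher in all 11 libraries were Neb (2.58), Fam46a (2.10), Itgav (2.04), Glrx (1.97), Ass1 (1.87), Ighm (1.87), Cd83 (1.85) and Hopx (1.84). Itgav is the alpha chain that pairs with Itgb8, and Hopx is a cofactor known in induced regulatory T cells. Ighm (ENSMUSG00000076617, chromosome 12, 113418558 to 113422730), the constant region of the immunoglobulin mu heavy chain and a B cell marker, had 260.4 CPM in p21mTertCD_1 to 559.4 in p21mTert_3, with a median of 443.9, against 63.7 to 230.6 in Foxp3-negative cells. The ranges did not overlap. It was detected in 70.4% of regulatory T cells and 38.9% of the others. In regulatory T cells without a UMI of Ms4a1 or Cd79b it was still at 263.5 to 568.7 CPM, against 63.5 to 233.3 in Foxp3-negative cells chosen the same way and 60.2 to 161.7 in CD8 T cells. Cells of the B cell gate had 3849 to 46840.3 CPM. Igkc, the kappa light chain of antibodies, was at a mean of 231.9 ± 209 CPM in regulatory T cells and 232.3 ± 202 in Foxp3-negative cells (SD, n = 11). Other B cell genes were low and had the higher mean in regulatory T cells, as Ighm did: Ighd was at 5.77 ± 4.68 against 2.67 ± 1.92 CPM and Cd79b at 13.2 ± 7.37 against 6.02 ± 3.66 (SD, n = 11), the latter higher in 10 of 11 libraries.

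The proliferation markers Mki67 and Top2a were detected in 11.3% and 12.2% of regulatory T cells, while Hmgb2, a chromatin protein and the most abundant gene of the cell cycle list, was detected in 85.8% of them and 85.6% of the Foxp3-negative cells. None of 10 genes of the list was higher or lower in all 11 libraries, with a median log2 ratio of 1.18. Hmgb2, Stmn1 and Top2a had ratios of 0.64, 1.26 and 1.29, each higher in 9 of 11, and Mki67 had 1.67, higher in 8 of 11. UMIs of at least 2 of Mki67, Top2a and Birc5 were seen in 35 of 662 regulatory T cells (5.29%) and in 145 of 7072 Foxp3-negative cells (2.05%). The share among regulatory T cells was the higher of the pair in 8 of 11 libraries. It ran from 0 of 35 cells in p21mTertCD_1 to 2 of 20 in p21mTert_5. After thinning to 1000 UMIs, 25 of 662 and 107 of 7072 cells had an Mki67 UMI.

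The population held cells with tissue genes, cells with central genes and cells with both. A cell was assigned by UMIs of 3 tissue genes (Il1rl1, Klrg1, Areg) and 2 central genes, Ccr7 and Lef1. Ccr7 is a receptor for lymphoid chemokines and Lef1 a factor of naive T cells. This split was made after the values had been seen and has no test. Of 662 cells, 267 (40.3%) had tissue genes only, 136 (20.5%) central genes only, 125 (18.9%) both and 134 (20.2%) neither, with median depths of 4748, 4995.5, 6152 and 3906 UMIs. After thinning to 1000 UMIs the shares were 29.9%, 10.4%, 3.32% and 56.3%. The tissue genes were found together: Klrg1 was detected in 55.8% of the 231 cells with Il1rl1 and in 13.2% of the others, Areg in 55.4% and 30.2%, and Gata3 in 83.5% and 47.8%. Thinned, the values were 23.9% and 8.38% for Klrg1, 25.7% and 13.7% for Areg, and 38.9% and 19.1% for Gata3. The central genes differed from each other: Ccr7 was detected in 5.63% of cells with Il1rl1 and 26.7% of those without (2.65% and 8.93% when thinned), and Lef1 in 27.3% and 27.4% (11.5% and 5.83% when thinned). Unlike Ccr7, Lef1 was thus not clearly rarer in cells with Il1rl1. Lef1 was found in 181 cells and Ccr7 in 128, and a UMI of either counted as central.

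The mix varied between libraries of 1 genotype. Cells with tissue genes only made up 14% of the WT library, 22.2%, 56.8% and 40% of the p21Het libraries, 30.4%, 30%, 39.8%, 41.7% and 50% of the p21mTert libraries, and 45.7% and 46.3% of the p21mTertCD libraries, in order of replicate. The shares with central genes only were, in the same order of libraries, 42% for WT, then 24.4%, 6.47% and 37.8% for p21Het, then 19.6%, 25%, 22.6%, 19.4% and 30% for p21mTert, and last 8.57% and 19.4% for p21mTertCD. By these counts WT_1 had the most central and fewest tissue cells, and p21Het_2 the most tissue and fewest central cells. After thinning to 1000 UMIs per cell, the tissue-only share of the WT library was 8%, those of the p21Het libraries 15.6%, 40.3% and 33.3%, those of the p21mTert libraries 32.1%, 22.5%, 33.3%, 33.3% and 50%, and those of the p21mTertCD libraries 28.6% and 20.9%. The thinned central-only share was 26% for WT, then 15.6%, 4.32% and 15.6% for p21Het, then 8.93%, 7.5%, 9.68%, 11.1% and 15% for p21mTert, and last 2.86% and 10.4% for p21mTertCD. WT_1 kept its place at equal depth, but the highest tissue-only share was then that of p21mTert_5 (10 of 20 cells) and the lowest central-only share that of p21mTertCD_1 (1 of 35 cells). The p21mTert libraries lay within the p21Het range on both measures before thinning, and after it all but p21mTert_5, which was above that range in tissue-only cells.

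**Figure D2:**
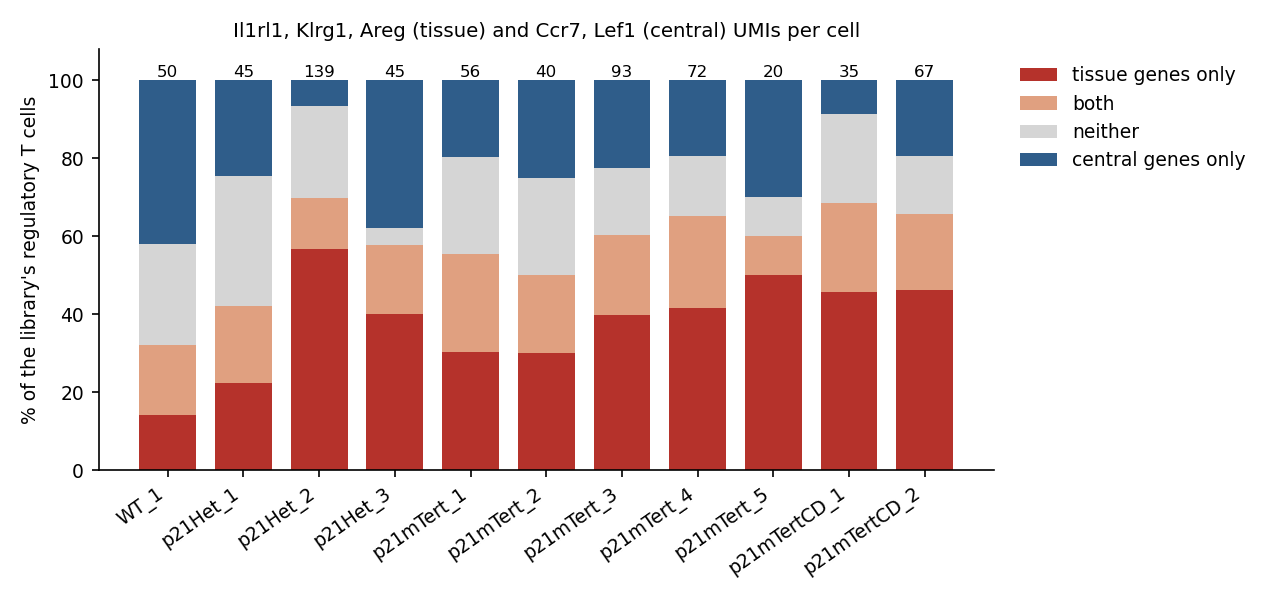
Percent of each library's regulatory T cells (y axis) with UMIs of tissue genes only, of central genes only, of both or of neither, stacked to 100, with the number of cells above each bar. In these unthinned counts WT_1 has the smallest tissue-only share (14%) and p21Het_2 the largest (56.8%), while after thinning to equal depth the largest was that of p21mTert_5 (50%).

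Cells of these sets differed in other genes too. In the 10 libraries with at least 5 cells of each, 251 tissue-only and 133 central-only cells were compared (p21mTertCD_1, with 3 central-only cells, was left out). Of 1595 genes that reached 100 CPM in either set and were not used for the split, 52 were higher in the tissue-only cells in all 10 libraries (3.26%) and 39 were lower in all 10 (2.45%). Levels here are CPM of the UMIs summed over the 10 libraries, and log2 ratios are medians over libraries. Gata3, the factor of type 2 immunity, had 368.4 CPM against 132.3 (ratio 1.33). Id2, a regulator of effector lymphocytes, had 635.6 against 99.3 (2.50), and Rbpj, the nuclear effector of Notch, 203.8 against 45.6 (2.23). Gadd45b and Nfkbia, which answer to NF-κB, had 518.9 against 98.1 (2.51) and 1449 against 417.6 (1.98). Cish, which damps cytokine signals, had 169.4 against 52.5 (1.91), Bhlhe40 258.4 against 108.4 (1.24), Hopx 591.7 against 198.5 (1.75) and S100a4 2343 against 913.9 (1.66). Each of these was higher in 10 of 10 libraries. Fgl2 had 350.2 against 41.1 and was higher in 9 of 10. The suppressive and costimulatory receptors were uneven as well, with Ctla4 at 1339 against 677.7 (1.15) and Tnfrsf4 at 1086 against 492.9 (1.11), both higher in 10 of 10. Il2ra had 292.2 against 117.5 and was higher in 7 of 10. The level of Ikzf2 was 1399 in tissue-only and 1139 in central-only cells, higher in 7 of 10.

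The central-only cells were higher in Klf2, a factor of lymphocyte egress, at 772.4 CPM against 330.6 (ratio -1.07), in 10 of 10 libraries. S1pr1, the egress receptor that KLF2 controls, had 295.5 against 119.4 and was higher in 8 of 10, and Klf3 and Tcf7 had 204.2 against 66.8 and 155.2 against 33.7, each higher in 9 of 10. Il7r, of the naive and central list, went the other way, at 352.5 against 619.4 and higher in the tissue-only cells in 9 of 10. Bcl2 and Satb1, of that list too, were higher in the central-only cells in 7 and 6 of 10. Itga6 had 135.8 against 39.1 (-1.25), Slamf6, a receptor of less differentiated T cells, 245.3 against 89.1 (-0.86), and Smc4, a condensin subunit, 627.5 against 290.8 (-1.07), in 10 of 10. Lrrc32 had 156.3 against 41.2 (-1.53) and was higher in the central-only cells in 9 of 10 libraries, opposite to Ctla4 and Tnfrsf4. Izumo1r had 465.5 against 240.9, also higher in 9 of 10.

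**Figure D3:**
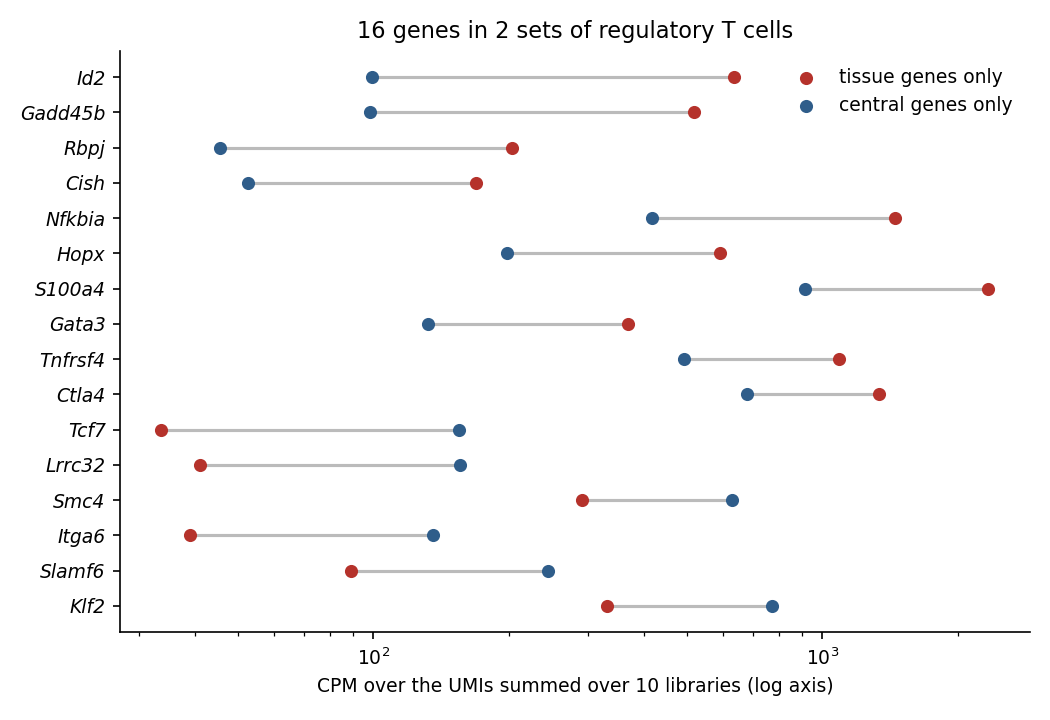
CPM (log axis) of 16 genes over the UMIs summed in 10 libraries, in regulatory T cells with tissue genes only (red, 251 cells) and with central genes only (blue, 133 cells). The 10 upper genes lie higher in the tissue-only cells, each in 10 of 10 libraries, and the 6 lower ones in the central-only cells, Tcf7 and Lrrc32 in 9 of 10 and the others in 10 of 10.

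The first comparison between genotypes asked whether regulatory T cells differed in number. They made up 5.21% of T cells in WT (exact Clopper-Pearson 95% interval 3.89% to 6.81%, which covers counting error only). The p21Het libraries had 5.57%, 9.67% and 5.00%, the p21mTert libraries 3.92%, 2.74%, 6.88%, 6.09% and 2.84%, and the p21mTertCD libraries 1.44% and 4.57%. The ranges of p21Het and p21mTert overlapped, and both p21mTertCD libraries lay below all 3 p21Het libraries. The p21mTert mean of 4.50% ± 1.9 (SD, n = 5) was set against the p21Het mean of 6.75% ± 2.55 (SD, n = 3), a difference of -2.25 points (2-sided exact permutation p = 0.232, adjusted over 6 tests 0.696). It was -0.789 without p21Het_2. For p21mTert minus p21mTertCD, whose mean was 3.01% ± 2.21 (SD, n = 2), the difference was 1.49 points (exact permutation p = 0.429, adjusted 0.857), and -0.0747 without p21mTertCD_1. For p21mTertCD minus p21Het it was -3.74 points (exact permutation p = 0.2, adjusted 0.696), where 2 against 3 libraries cannot go below 0.1. It was -2.18 without p21mTertCD_1 and -2.28 without p21Het_2.

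As a share of all filtered barcodes, the WT library held 0.915% regulatory T cells (exact 95% interval 0.680% to 1.20%). The p21Het libraries held 0.724%, 1.63% and 0.767%, the p21mTert libraries 0.900%, 0.532%, 1.47%, 1.15% and 0.424%, and the p21mTertCD libraries 0.534% and 1.20%. All 3 pairs of groups overlapped. By exact permutation, p21mTert differed from p21Het by -0.145 points (p = 0.643, 0.96 after adjustment), and from p21mTertCD by 0.0305 points (p = 1, also after adjustment). The latter difference ran from -0.301 to 0.362 points with 1 library left out in turn. The p21mTertCD libraries differed from p21Het by -0.175 points (exact permutation p = 0.8, 0.96 after adjustment). Without p21Het_2 the differences from p21Het were 0.15 points for p21mTert and 0.120 for p21mTertCD. The smallest p is 0.0179 for 5 against 3 libraries and 0.0476 for 5 against 2. Shares from dissociated tissue also depend on how well each cell type was released, which was not tested.

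**Figure D4:**
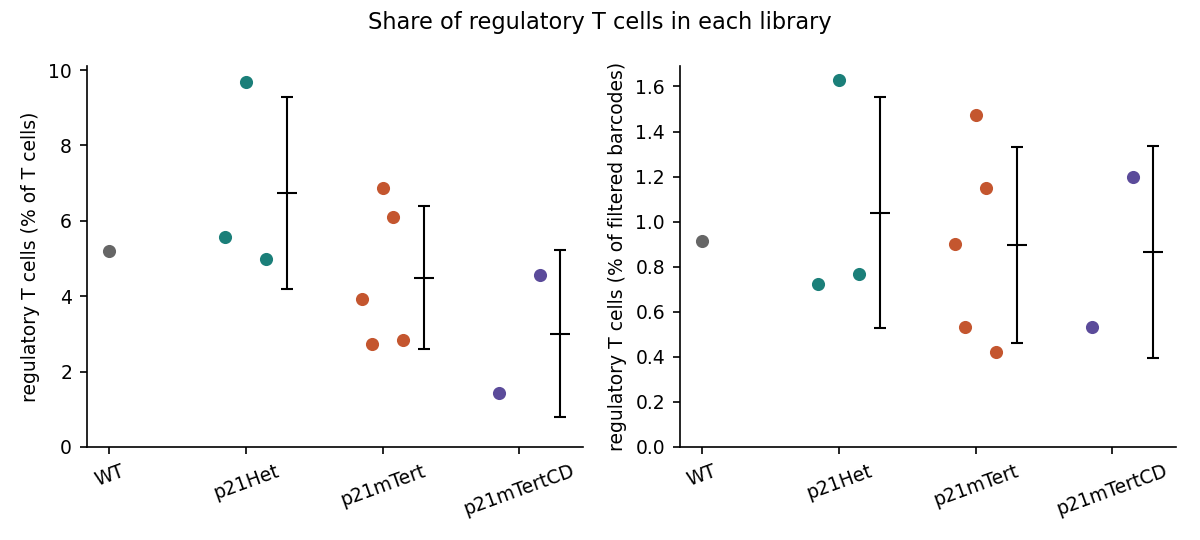
Regulatory T cells as a percent of T cells (left) and of filtered barcodes (right), 1 point per library, with the mean and SD of groups with more than 1 library in black. The groups overlap except that both p21mTertCD libraries (1.44% and 4.57% of T cells) lie below the p21Het libraries (5.00% to 9.67%).

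The second comparison asked which genes differed within regulatory T cells. UMIs were summed per library and fitted over the 10 replicated libraries with edgeR's quasi-likelihood test. Of 5484 genes outside the gate, 0 (0.0%) had an adjusted p under 0.05 in each of the 3 contrasts. At an unadjusted p under 0.05 there were 247 (4.5%) for p21mTert minus p21Het, 222 (4.05%) for p21mTert minus p21mTertCD and 194 (3.54%) for p21mTertCD minus p21Het. DESeq2 called 1, 0 and 0 genes at an adjusted p under 0.05. The p21Het libraries enter 2 of these contrasts and so do the p21mTert and p21mTertCD libraries, so the contrasts are not independent.

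None of the markers was called. Ctla4 had 1462, 1029 and 1401 CPM in the p21Het libraries. It had 1306, 874.6, 934.7, 1145 and 1149 CPM in p21mTert, 894.7 and 920.5 in p21mTertCD and 829.2 in WT (237 UMIs, exact 95% counting interval 727.0 to 941.7). Both p21mTertCD libraries were below all p21Het libraries, and p21mTert overlapped p21Het. How many of the 5484 tested genes separate groups in this way was not counted, here or for the genes below. The edgeR log2 fold changes were -0.25 (SE 0.14, adjusted p 1.00) for p21mTert minus p21Het and -0.46 (SE 0.18, adjusted p 1.00) for p21mTertCD minus p21Het. Il2ra had 389.2, 252.3 and 192.7 CPM in p21Het and 357.3, 63.7, 187.6, 194.2 and 99.2 in p21mTert, overlapping groups with a log2 fold change of -0.55 (SE 0.37, edgeR adjusted p 1.00). The p21mTertCD libraries had 146.7 and 163.5 CPM, both below all p21Het libraries (log2 fold change -0.78, SE 0.49, edgeR adjusted p 1.00), and WT had 129.4 (37 UMIs, exact 95% counting interval 91.1 to 178.4). For p21mTert minus p21Het the fold change was -0.33 without p21Het_1, -0.34 without p21mTert_2 and -0.91 without p21mTert_1.

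Il1rl1 had 192.7, 288.5 and 225.4 CPM in p21Het, 180.1, 148.7, 170.4, 158.5 and 181.8 in p21mTert. The p21mTertCD libraries had 227.2 and 118.3, and WT had 56.0 CPM (16 UMIs, exact 95% counting interval 32.0 to 90.9). All 5 p21mTert libraries lay below all 3 p21Het libraries, yet the log2 fold change of -0.52 (SE 0.23) had an unadjusted edgeR p of 0.0394 and an adjusted p of 1.00. Without p21Het_2 the fold change was -0.25. Itgae was lower at an unadjusted p of 0.0370 (log2 fold change -0.77), and Lrrc32 was higher at 0.0115 (0.97), with 102.7 ± 18.8 CPM (SD, n = 5) in p21mTert against 55.5 ± 31.4 (SD, n = 3) in p21Het. For p21mTert minus p21Het, these and Foxp1 were the list genes at an unadjusted p under 0.05: 1 of 16 tested identity genes, 2 of 21 tissue and effector genes and 1 of 11 naive and central genes, against 4.5% of all 5484 genes tested, with edgeR adjusted p from 0.940 to 1.00. The medians of the 3 lists were 0.05, -0.30 and -0.03, against 0.00 over all genes tested. In the other 5 lists no gene passed that mark. For p21mTert minus p21mTertCD it was passed by Il10, 1 of 21 tissue and effector genes, and Foxp1, 1 of 11 naive and central genes. The share over all 5484 genes was 4.05%. For p21mTertCD minus p21Het it was passed by Ctla4, 1 of 16 identity genes, and again by Il10 and Foxp1, against 3.54% of all genes. No other list gene passed it in these 2 contrasts.

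Foxp1, a factor of T cell quiescence that partners with Foxp3, had 366.5, 173.1 and 297.2 CPM in p21Het, 228.2, 152.3, 203.1, 176.4 and 198.4 in p21mTert. Both p21mTertCD libraries, at 85.2 and 135.5, were below all others. It was second by p for p21mTertCD minus p21Het, with a log2 fold change of -1.22 (SE 0.29, edgeR adjusted p 1.00), after Ppp3ca, the catalytic subunit of calcineurin (-1.04, SE 0.23, adjusted p 1.00). Next came 4932438A13Rik, Rad50 and Rps6kb1, with -0.89, 1.16 and -1.08.

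Il10 rested on few UMIs. It had 71.8, 10.7 and 13.1 CPM in p21Het, 87.1, 10.6, 29.3, 21.8 and 0 in p21mTert. Its level was 0 and 2.15 in p21mTertCD, and WT had 56.0 CPM (16 UMIs). The 3 libraries of the first deposit (WT_1, p21Het_1 and p21mTert_1) were the 3 highest, and both p21mTertCD libraries belong to the later deposit, whose p21Het and p21mTert libraries had 0 to 29.3 CPM. The part of the deposit in these values was not tested. The p21mTertCD libraries held 1 Il10 UMI in all, the p21Het libraries 31 and the p21mTert libraries 60, and none of the differences was called.

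Cdkn1a, the gene that carries the engineered alleles, and Tert were looked at in the regulatory T cells. Cdkn1a (ENSMUSG00000023067, chromosome 17, 29090976 to 29100727) had 34.0, 69.8 and 39.2 CPM in p21Het, 141.1, 46.0, 74.0, 27.7 and 74.4 in p21mTert, 61.5 and 58.1 in p21mTertCD and 66.5 in WT (19 UMIs, exact 95% counting interval 40.0 to 103.8). The groups overlapped, with a log2 fold change of 0.45 (SE 0.43, edgeR adjusted p 1.00) for p21mTert minus p21Het. It was 0.04 without p21mTert_1, 1.03 without p21Het_2 and -0.17 in the later deposit alone. Tert (ENSMUSG00000021611, chromosome 13, 73626911 to 73649843) gave 7 UMIs in the 662 cells: 3 in p21Het_2, 2 in p21mTert_1 and 1 each in p21mTert_3 and p21mTert_5. The other 7 libraries had 0, which allows up to 5.95 to 14.2 CPM by a floor of 3 counts per library. Tert was below the count filter, and a difference between genotypes was not detectable at this depth.

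**Figure D5:**
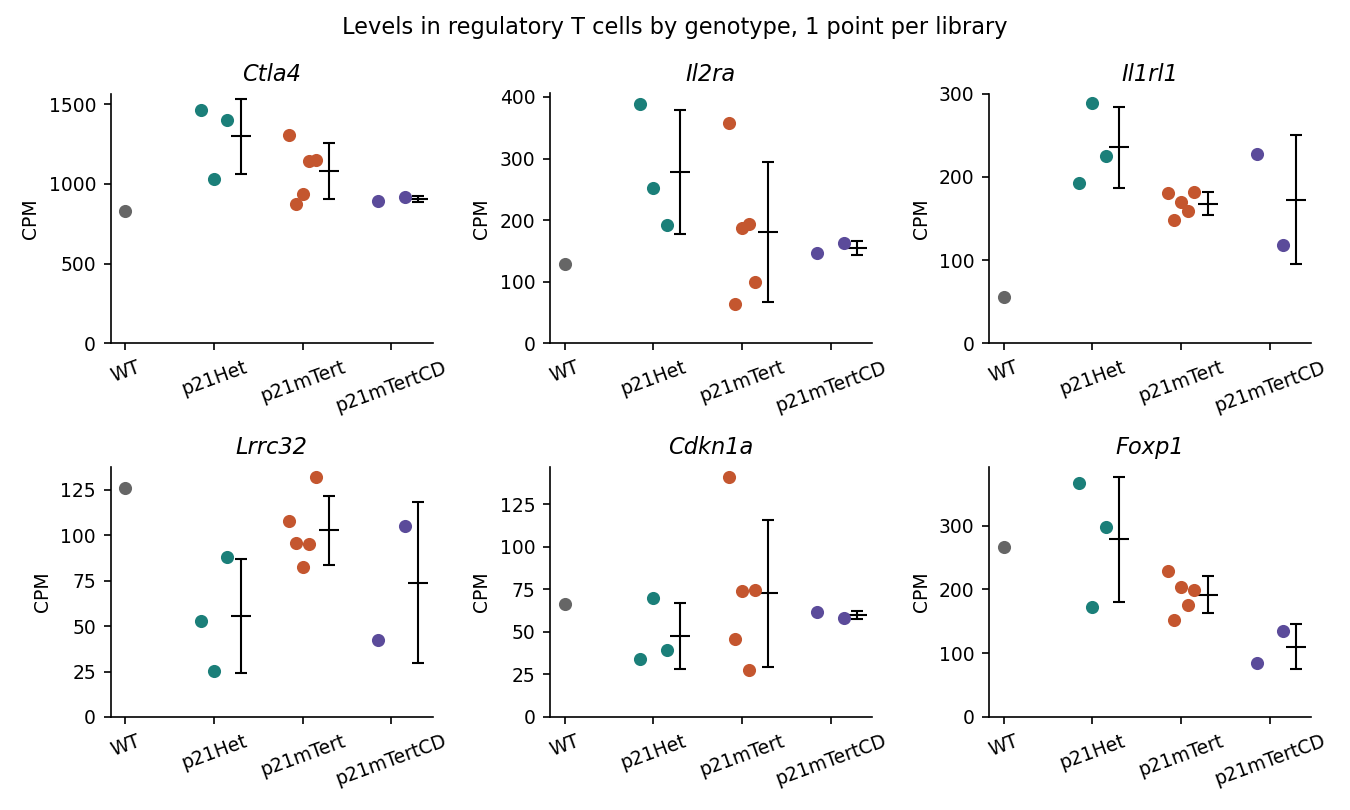
CPM of 6 genes in regulatory T cells (linear axes from 0), 1 point per library by genotype, with the mean and SD of groups with more than 1 library in black. For Il1rl1 the 5 p21mTert libraries (148.7 to 181.8) lie below the 3 p21Het libraries (192.7 to 288.5), and no gene shown passed an adjusted p of 0.05 in any contrast.

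The lowest p for both p21mTert contrasts included genes known from other cell types, and for several of these 1 barcode held most UMIs of a library. For p21mTert minus p21Het the lowest were Tnfaip2 (log2 fold change -2.96, edgeR adjusted p 0.166), and Ccl6, Chil3, Ctsd and Eln (each at an adjusted p of 0.349), of which Chil3 marks alveolar macrophages and Eln encodes elastin of connective tissue. Tnfaip2 had 64.2, 36.2 and 84.9 CPM in p21Het and 15.01, 3.54, 3.44, 7.93 and 8.26 in p21mTert, on 70 and 13 UMIs. The groups did not overlap, but 1 cell held 14 of 17 Tnfaip2 UMIs in p21Het_1 (82.4%) and 25 of 26 in p21Het_3 (96.2%). In p21Het_2 the highest cell held 8 of 27. Without p21Het_3, edgeR called 9 genes for this contrast, Ccl6, Chil3, Ctsd and Eln among them (adjusted p 0.000695 to 0.0432). In p21Het_2, 1916 of 2334 Chil3 UMIs (82.1%) lay in 1 of its 139 cells, and in p21Het_1, 106 of 110 Ccl6 UMIs (96.4%) lay in 1 of 45. Summed macrophage and monocyte markers (6 genes) ran from 186.2 to 4364 CPM in p21Het, 140.5 to 2801 in p21mTert and, for p21mTertCD, 1146 to 1534. For p21mTert minus p21mTertCD the lowest p belonged to Bgn, Gpx3, Gsto1, Mgp and Mfap4 (edgeR adjusted p 0.767 for the first 3 and 0.857 for the others). In p21mTertCD_2, 1 of 67 cells held 296 of 320 Mgp UMIs (92.5%), 73 of 75 Bgn UMIs (97.3%), or 92 of 98 Gpx3 UMIs (93.9%), counted gene by gene. Without p21mTertCD_1, edgeR called 3 genes for this contrast, Gpx3, Bgn and Npnt, with 1 p21mTertCD library left that was assumed to vary like the other groups, and without p21mTertCD_2 the log2 fold change of Gpx3 was 3.66.

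Other marker lists were as follows. Over 1% of a cell's UMIs came from the marker list of another cell type in 24 of 662 cells: 10 by macrophage and monocyte markers, 11 by alveolar and club cell markers, 6 by erythroid and 1 by neutrophil markers, with some cells counted under 2 lists, and 0 by B cell markers. Of the 24, 8 were among the 26 cells that Scrublet marked as doublets. Leaving out the 24 cells, an alternative added after seeing the data, the counts against Foxp3-negative cells were 366 and 192 genes, of which 316 and 168 were among the 354 and 182 above, and edgeR again called 0 genes in each contrast. These fits also lost the whole p21mTert_5 library, since 2 of its 20 cells were left out and 20 were needed. The log2 fold changes for p21mTert minus p21Het were then -0.71 for Ccl6 and -1.67 for Chil3, against -3.08 and -4.08 with all cells and libraries. The part of the lost library in these changes was not tested. Ctsd had -0.56 against -1.82, and Eln -4.30 against -4.28. B cell markers, Ighm among them, summed to 265.1 to 571.5 CPM. Alveolar and club cell markers (4 genes) summed to 982.9 to 20172 CPM, the highest in p21mTert_1, where 1 of 56 cells held 4504 of 5375 Sftpc UMIs. Endothelial markers (3 genes) summed to 14.2 to 290.3 CPM, neutrophil markers (3) to 20.7 to 855.7, fibroblast markers (3) to 2.68 to 506.3 and erythroid markers (3) to 25.8 to 6905, the last in p21Het_2. Gamma delta T cell markers (2) summed to 0 to 95.1, dendritic cell markers (3) to 0 to 37.9, natural killer cell markers (3) to 0 to 8.26 with Ncr1 at 0, and markers of group 2 innate lymphoid cells (3), which also use Il1rl1 and Gata3, to 0 to 10.6 CPM.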

How the data were processed

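Dissociated lung was profiled with 10x 3′ single-cell RNA sequencing in 11 libraries. Per the submitters' processing notes, Cell Ranger and mm10 were used; the version differs between the labels and the file headers and is not given. The deposited matrices hold raw UMI counts per gene (31053) and barcode, with no normalization by the authors. Gene positions are from GENCODE M21 (GRCm38; 30934 of 31053 identifiers matched).

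The barcode filter and gate are those stated in the report. Members, gene lists (8) and the rule for naming genes were chosen with earlier results of these data known. A few genes are not reported here and were left out of the lists, the marker sums and the split of the cells. The rule names Ctla4, Il2ra, Ikzf2, Il1rl1, Cdkn1a and Tert, the 20 highest and 10 lowest log2 ratios that have 1 sign in all libraries, the identity and tissue genes of 1 sign in all libraries, the 4 most abundant genes of each list, and, where under 5 genes were called, the 5 lowest p per contrast; genes between the tissue-only and central-only sets were chosen after their values were seen, as were a few other list genes given values for their role. Doublets were marked by Scrublet in scanpy 1.11.5 (highest scores up to 0.8% per 1000 barcodes, 3.93% of members) and kept in the main results. Thinning drew 1000 UMIs per cell; no filtered cell was shallower.

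UMIs were summed per library (20 or more cells needed) and 10 libraries entered 1 quasi-likelihood model (edgeR 4.0.16, R 4.3.3; TMM factors, filterByExpr, Benjamini-Hochberg adjustment over all tested genes, threshold 0.05); SEs derive from the F statistic. The fit was tested on simulated data. Shares were compared by 2-sided exact permutation tests, adjusted over 6. WT, with 1 library, entered no test. Alternatives were DESeq2 1.42.0, other normalization, filters, gates, denominators and deposits, thinned barcodes, doublets left out, a replicate block and libraries left out in turn. Same-numbered libraries of different genotypes had correlations of -0.28 to 0.16 in their deviations from the group means, against -0.31 to 0.37 for differing numbers. The numbers were not taken as pairs, though these correlations cannot exclude pairing. With 2 p21mTertCD libraries the deviations mirror each other (-0.232 and 0.232 with p21Het_1), so the values for these libraries are not independent. Python 3.11.15, numpy 2.4.6, pandas 2.3.3, scipy 1.17.1 and matplotlib 3.10.9 were also used. UMI totals were 42038434 to 85988955 per library. Low counts limit single genes, since regulatory T cells held 120998 to 745122 UMIs per library.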

Additional observations from a re-analysis of the deposited data

Results flagged for a closer look

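In p21mTert, 25 values over the 5 libraries were looked at for a sample far from the others, and 2 stood out, where chance gives about 1 in 20. Ccl6, a macrophage chemokine, was at 66.0 CPM in the regulatory T cells of p21mTert_1, far above the 8.26 to 24.1 CPM of the other 4 libraries (22 UMIs). Mgp, a matrix protein gene, was at 57.5 CPM in p21mTert_4 (29 UMIs), against 0 to 15.5 CPM in the others. Of these 29 Mgp UMIs, 21 (72.4%) lay in 1 of 72 cells, and of the 22 Ccl6 UMIs, 9 (40.9%) lay in 1 of 56.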

How the results depend on the processing

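The numbers of regulatory T cells and the fits within them rest on 20 to 139 cells per library, and with 2 to 5 libraries per group only large differences could be called. Over all alternatives and both shares, the lowest exact permutation p was 0.114 for p21mTert minus p21Het and 0.333 for p21mTert minus p21mTertCD. For p21mTertCD minus p21Het it was 0.1, the smallest this design allows, with 2 Foxp3 UMIs and on the logit scale for the share of T cells, so that no result there could pass 0.05. Leaving out 1 library moved the share of all barcodes between -0.303 and 0.15 points for p21mTert minus p21Het, between -0.301 and 0.362 for p21mTert minus p21mTertCD and between -0.507 and 0.156 for p21mTertCD minus p21Het, and the share of T cells for p21mTert minus p21mTertCD between -0.0747 and 3.05 (lowest without p21mTertCD_1), for p21mTert minus p21Het between -3.13 and -0.789 and for p21mTertCD minus p21Het between -5.31 and -2.18. The replicate block, for numbers that do not pair the libraries, gave -0.149 points for the share of all barcodes, p21mTert minus p21mTertCD, a change of sign, and -0.0721 and -0.312 for p21mTert minus p21Het and p21mTertCD minus p21Het; for shares of T cells it gave -2.23 (p21mTert minus p21Het), 0.323 and -4.62, and it called 0 genes in each contrast. Not every library correlated best with its own number.

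Counts of called genes (0 in each contrast) rose to 131, 122 and 56 with no filter on low counts (in order p21mTert minus p21Het, p21mTert minus p21mTertCD, p21mTertCD minus p21Het), with Chil3, Hbb-bs and Mgp among the leading genes, and to 15 and 10 in the last 2 when a Cd4 UMI was needed, which leaves 1 p21mTertCD library. For p21mTert minus p21Het there were 2 (Wfdc17, Hbb-bt) in the later deposit alone and 1 (Tnfaip2) with DESeq2. Without 1 library they ran from 0 to 9 (9 without p21Het_3, 1 without p21Het_1), 0 to 3 (3 without p21mTertCD_1, 2 without p21mTertCD_2) and 0 to 1 (without p21mTertCD_2). Leaving out every cell with a marker UMI of other types was not run, since 0 or 1 cells per library remained.

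Genes with no call changed sign in places; the cause was not tested. Cdkn1a, p21mTert minus p21Het, was -0.17 in the later deposit alone. For p21mTert minus p21mTertCD, Cdkn1a was -0.16 there. Il2ra was -0.0516 with a deposit term and -0.11 in the later deposit. Il1rl1 was 0.0495 with 2 Foxp3 UMIs, 0.10 with a Cd4 UMI and 0.0327 without the 24 cells named above and p21mTert_5. Il1rl1 was 0.0203 with a deposit term and 0.0064 with the replicate block. For p21mTertCD minus p21Het, Cdkn1a was -0.18 with a Cd4 UMI and -0.0179 in the later deposit. Over libraries left out, Cdkn1a ran from -0.0148 to 0.79 in this contrast; for p21mTert minus p21Het, Cdkn1a ran from 0.04 to 1.03, Il1rl1 from -0.70 to -0.25 and Il2ra from -0.91 to -0.33. For p21mTert minus p21mTertCD the ranges were -0.12 to 0.44 (Il2ra), -0.43 to 0.14 (Ikzf2), -0.50 to 0.52 (Il1rl1), -0.16 to 0.51 (Cdkn1a), -5.62 to 3.66 (Gpx3), -5.19 to 0.15 (Mgp) and -6.00 to 2.57 (Mfap4), the last 3 turning without p21mTertCD_2.

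Against Foxp3-negative cells, 354 genes higher in all libraries became 193 with a Cd4 UMI on both sides and 685 against CD8 T cells, where Tmem176a turned to 0.97; without 1 library the counts ran from 362 to 469 (higher) and 186 to 217 (lower). Of 74 named genes, 52 kept their log2 ratio within 1 SD with a Cd4 UMI on both sides, 74 with 2 Foxp3 UMIs, 74 without doublets, 55 and 47 with pseudocounts of 1 and 50 CPM, and 26 against CD8 T cells.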
